A study of Mus musculus with 20 samples.

Results

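The hepatic insulin-like growth factor (IGF) axis was taken as 6 transcripts: the ligand Igf1, its acid-labile subunit Igfals, and the binding proteins Igfbp1, Igfbp2, Igfbp3 and Igfbp4. Members were the non-control array probes annotated to one of these gene names, 12 probes among 55642 kept in all; the rule uses gene names and no threshold on a measured value, though the genes were picked with earlier results of these data known. All 6 genes were measured, and 11 of the 12 probes passed the filter described below. Liver RNA came from 20 male mice on a high fat diet with 45% fat, sampled at week 6, with 1 array per mouse and 4 mice in each of 5 inbred strains. The strains were NZO/HiBomDife (NZO), which is obese and susceptible to diabetes, DBA/2J (DBA) and C3HeB/FeJ (C3H), which are lean and susceptible, and the lean and resistant C57BL/6 (B6) and 129P2/OlaHsd (129Ola). The diet was common to all groups and no mouse on another diet entered, so strain is the only difference the groups were built on; inbred mice of a strain share 1 genotype. The protocol also gives 6 weeks as the age, so week 6 of age and of the diet cannot be told apart here.

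IGF1 is made mainly by hepatocytes under growth hormone, which acts through its receptor, JAK2 and STAT5. In blood most IGF1 travels in a complex with IGFBP3 or IGFBP5 and the acid-labile subunit that Igfals encodes, which keeps the hormone in the circulation. IGFBP1 and IGFBP2 form smaller complexes and are the binding proteins whose liver transcripts are low in the fed, insulin-rich state, IGFBP1 through insulin's action on FOXO1. IGFBP4 binds IGF and is cut by the protease PAPP-A. IGFBP2 has been studied in mice as a binding protein whose hepatic level is low in obesity.

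Sequences of both probes and promoters bear on the measurements. The probes shown are those of Igfbp2 and Igfals, given because the values below are the signal at exactly these letters, taken 5′ to 3′ from the array files (build mm9, plus strand). The Igfbp2 probe lies at chr1:72898677-72898736 and ends in the stop codon, in capitals, and the Igfals probe lies at chr17:25018251-25018310.
Igfbp2 probe: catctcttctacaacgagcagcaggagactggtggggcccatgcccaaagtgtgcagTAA
Igfals probe: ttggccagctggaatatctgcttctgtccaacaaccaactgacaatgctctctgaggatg

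Promoters are shown because Igfbp1 and Igfbp2 were the members with the largest strain differences. The 250 bases before the annotated start are from RefSeq (build GRCm38.p6, plus strand), chr11:7197537-7197786 for Igfbp1 and chr1:72824230-72824479 for the first of 2 annotated Igfbp2 starts. In Igfbp1 the capitals mark CAAAACAAACTTATTTTG, the run known from the human and rat genes as the insulin response element. In Igfbp2 they mark GGGCGG, the core of an SP1 site.
Igfbp1 promoter: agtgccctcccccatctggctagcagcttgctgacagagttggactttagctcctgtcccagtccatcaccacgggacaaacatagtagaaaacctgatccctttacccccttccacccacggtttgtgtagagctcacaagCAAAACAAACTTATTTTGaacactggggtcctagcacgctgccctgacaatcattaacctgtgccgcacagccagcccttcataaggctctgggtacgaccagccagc
Igfbp2 promoter: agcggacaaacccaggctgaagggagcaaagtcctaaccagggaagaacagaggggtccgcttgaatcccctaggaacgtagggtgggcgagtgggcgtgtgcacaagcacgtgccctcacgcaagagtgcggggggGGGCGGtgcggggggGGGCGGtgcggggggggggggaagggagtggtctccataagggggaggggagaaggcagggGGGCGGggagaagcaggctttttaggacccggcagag

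Of 32851 promoter windows of this length, 1 held the 18-letter Igfbp1 run on either strand, that of Igfbp1. The run searched for was copied from this Igfbp1 window, so its match there was fixed in advance and the count does not measure specificity. The shorter CAAAACA, which lies inside that run, was in 5.56% of the windows, and among the 9 windows of the 6 members only in that of Igfbp1. GGGCGG was in 32.7% of the windows and occurred 3 times in the Igfbp2 window shown. The STAT-type motif TTCNNNGAA was in 7.02% of the windows and in 2 of the 3 Igfals windows. The forkhead motif GTAAACA was in 3.17% of the windows and in 1 Igfals window. These are matches of letters in the reference strain, and the other strains' sequences were not used here.

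Levels are given as log2 of the deposited processed signal minus the 75th percentile of the array, so that a step of 1 is a doubling of signal, and they are compared between strains for 1 probe, never between probes. Probes were kept if at least 1 strain had them well above background in each of its 4 mice, and 20624 genes remained, each represented by its brightest probe. Differences are limma estimates with their standard error (SE), and p-values are limma's, two-sided, adjusted by the Benjamini-Hochberg method over all 20624 genes, with 0.05 as the threshold. The 6 member genes were well above background on all 20 arrays. The list means of hepatocyte markers lay between 9.96 and 10.34 over the 20 mice. They were 10.23 to 10.34 in C3H and 9.96 to 10.22 in 129Ola, which did not overlap. Of 7 markers, 3 were higher past the threshold in C3H than in 129Ola, beside 15.4% of all genes. In NZO 1 was higher than in B6, beside 9.72% of all genes, and none was lower in either comparison. NZO, DBA and B6 were extracted with one software version. NZO shared a slide with B6 and others with DBA, but no slide held both DBA and B6, and 2 B6 mice and 2 DBA mice were on slides with no other strain, so slide and strain are partly confounded here too. C3H and 129Ola were extracted with another, C3H on 1 slide and 129Ola on 2 others scanned on another day, so for C3H against 129Ola strain and slide cannot be told apart, nor strain and array batch across the versions. The labels' animal numbers name the mice, and p-values reflect the variation among mice within strains.

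Igfbp2 had the largest difference between NZO and the other strains among the members. The log2 level was 2.03, 2.68, 2.93 and 0.91 in NZO mice 3, 7, 9 and 11. In DBA mice it was 5.34, 5.84, 6.10 and 5.60. In B6 mice it was 5.73, 5.71, 5.71 and 5.36. Every NZO mouse lay below every DBA and B6 mouse, and NZO had the widest spread of the 5 strains (SD 0.91, against 0.32 in DBA and 0.18 in B6, n = 4 each). NZO was 11.2-fold lower than B6 (log2 difference -3.49, SE 0.31, adjusted p = 2.06e-07) and 12-fold lower than DBA (-3.58, SE 0.31, adjusted p = 1.34e-07). Without NZO 11, the lowest mouse, the difference from B6 was -3.08 (adjusted p = 2.34e-08). Within the scan day that held NZO mice 3, 9 and 11 the difference from B6 was -3.58, and within the other, from NZO 7 alone, it was -3.04. With the slide as a fixed block it was -3.50 (adjusted p = 0.0455).

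DBA did not differ from B6 in Igfbp2 past the threshold (0.09, 95% interval -0.56 to 0.74, adjusted p = 0.903). In the other array batch, C3H mice had 4.88, 4.92, 4.97 and 4.74, and 129Ola mice had 7.09, 6.71, 6.35 and 6.74. The groups did not overlap, and C3H was 3.59-fold lower than 129Ola (-1.84, SE 0.31, adjusted p = 0.000221; adjusted p = 0.027 with the slide as a random block). From low to high the strain means ran NZO 2.14, C3H 4.88, B6 5.63, DBA 5.72 and 129Ola 6.72. Of the neighbours in this order, C3H and B6 (-0.75, adjusted p = 0.0678) and DBA and B6 did not differ past the threshold, while NZO and C3H (-2.74, adjusted p = 2.82e-06) and DBA and 129Ola (-1.01, adjusted p = 0.012) did, both across the array batches. The last of these calls was lost with the slide as a random block, under normexp or quantile normalization, and in the authors' value table. The C3H and B6 mice did not overlap, and limma called their difference under 3 of 10 alternatives (adjusted p down to 0.00793), also across the array batches.

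The dimmer Igfbp2 probe, 76 bases further along the same strand, also had its lowest level in NZO and its highest in 129Ola. Its level was 1.26, 1.85, 2.29 and 0.30 in NZO, 4.60, 5.49, 5.77 and 5.21 in DBA, and 5.05, 5.10, 5.09 and 4.82 in B6. NZO mouse 11 was lowest and mouse 9 highest at both probes. The difference at this probe was -3.59 between NZO and B6 and -3.84 between NZO and DBA (adjusted p = 1.7e-07 and 6.57e-08 over all probes), and -1.90 between C3H and 129Ola (adjusted p = 0.000203). The probes share the transcript and are not replicates of each other.

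**Figure D1:**
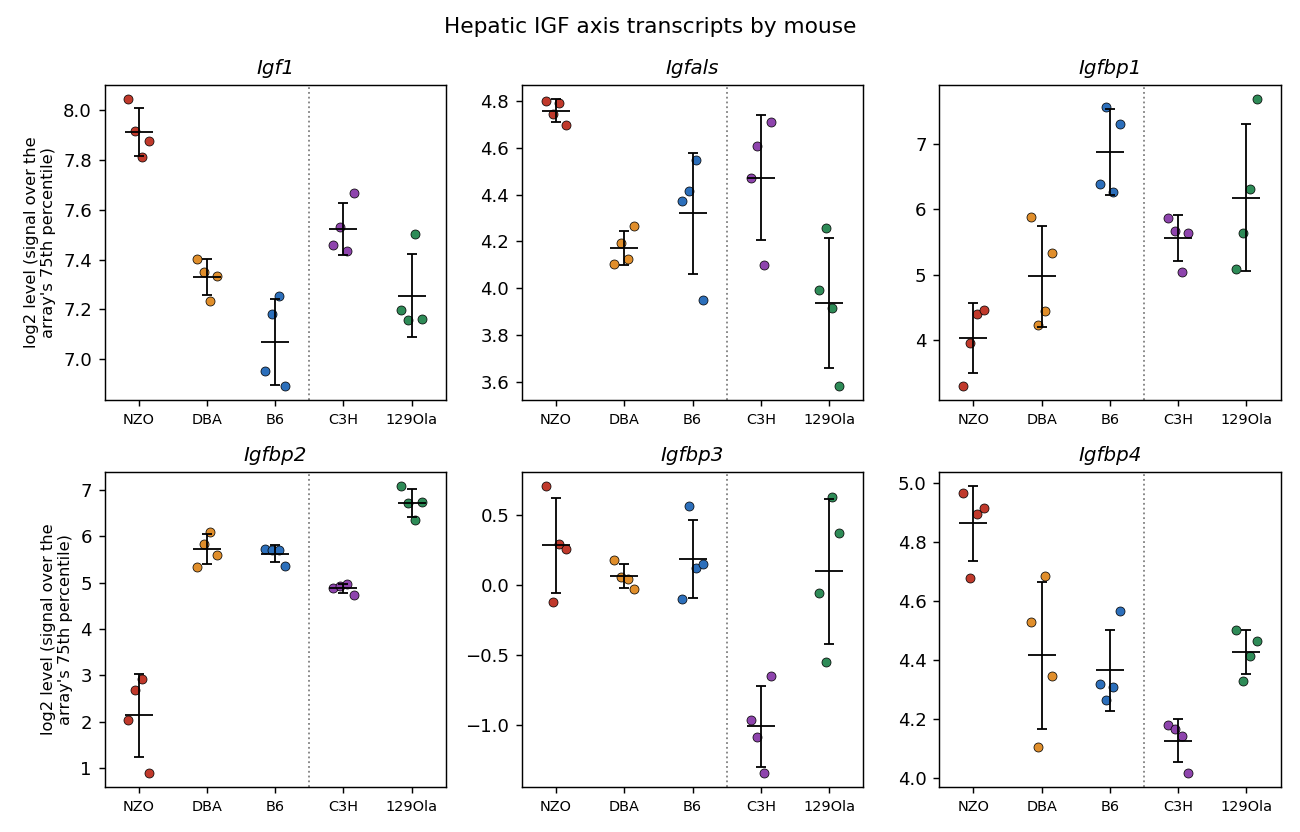
Log2 level of the 6 IGF axis genes by strain. Points are mice (n = 4 per strain), the bar is the mean with its SD, and the dotted line separates the array batches. The 4 NZO mice lie between 0.91 and 2.93 for Igfbp2, below all other mice, and above all other mice for Igf1.

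Igfbp1, the binding protein whose transcript insulin acutely regulates, was lower in NZO and in DBA than in B6. NZO mice had 3.31, 3.96, 4.40 and 4.46. DBA mice had 5.88, 4.24, 4.44 and 5.34, and B6 mice had 6.38, 7.56, 6.26 and 7.30. No NZO or DBA mouse reached the lowest B6 mouse, while NZO and DBA overlapped. NZO was 7.18-fold lower than B6 (-2.84, SE 0.49, adjusted p = 0.000358) and DBA was 3.73-fold lower than B6 (-1.90, SE 0.49, adjusted p = 0.0109). NZO against DBA missed the threshold (-0.94, 95% interval -1.97 to 0.08, adjusted p = 0.216).

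Within single scan days the Igfbp1 difference between DBA and B6 was -3.19 and -0.44, each from 1 DBA mouse (DBA 9 and DBA 5) against 2 B6 mice, so the days cannot be told apart from those mice. Its call was lost with scan day (adjusted p = 0.0696) or slide (adjusted p = 0.0858) as a fixed block. No slide held both DBA and B6, so that block compares them through NZO. The difference between NZO and B6 was -3.38 and -2.36 within the same days, the second from NZO 7 alone. C3H mice had 5.87, 5.67, 5.05 and 5.65, and 129Ola mice had 5.09, 5.64, 6.30 and 7.68. The 129Ola mice were the most spread for this gene (SD 1.12, against 0.36 in C3H), and C3H did not differ past the threshold (-0.62, 95% interval -1.65 to 0.40, adjusted p = 0.327).

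Igf1 went the other way. It was highest in NZO mice, at 8.05, 7.92, 7.81 and 7.88, against 7.40, 7.35, 7.23 and 7.34 in DBA mice and 6.95, 7.18, 7.25 and 6.89 in B6 mice. The NZO mice overlapped with neither. NZO was 1.8-fold higher than B6 (0.84, SE 0.10, adjusted p = 7.21e-06) and 1.5-fold higher than DBA (0.58, SE 0.10, adjusted p = 0.000323). The call against DBA was lost with the slide as a fixed block (0.50, adjusted p = 0.0529). DBA against B6 missed the threshold (0.26, adjusted p = 0.0953). C3H mice had 7.46, 7.53, 7.43 and 7.67, and 129Ola mice had 7.20, 7.16, 7.50 and 7.16. C3H was higher by 0.27 (SE 0.10, adjusted p = 0.0436), a call that was lost with the slide as a random block (adjusted p = 0.306), in a fit of these arrays with no other batch (adjusted p = 0.0796), with no filter (adjusted p = 0.0848), and without C3H mouse 1, 2 or 5, NZO 11, DBA 9 or 15, or 129Ola 4, 5 or 9 (adjusted p up to 0.129).

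Igf1 has 5 probes, of which the 2 brightest share 40 bases. NZO was higher than B6 at 4 of them, by 0.84, 0.84, 1.35 and 1.20 (adjusted p between 8.25e-06 and 8.75e-05 over all probes). The fifth, designed on a variant transcript and placed upstream of the others at chr10:87378456-87378515 (mm9), differed: NZO was at 3.22 ± 0.83, DBA at 2.61 ± 0.46 and B6 at 2.97 ± 0.75 (SD, n = 4 each), and NZO minus B6 was 0.26 (adjusted p = 0.776). At this probe C3H stood apart, at 4.67 ± 0.09 against 2.89 ± 1.1 in 129Ola, a difference of 1.78 (adjusted p = 0.00974). Probes of the same gene therefore disagree on C3H against 129Ola, where the other 4 gave differences between 0.10 and 0.32.

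**Figure D2:**
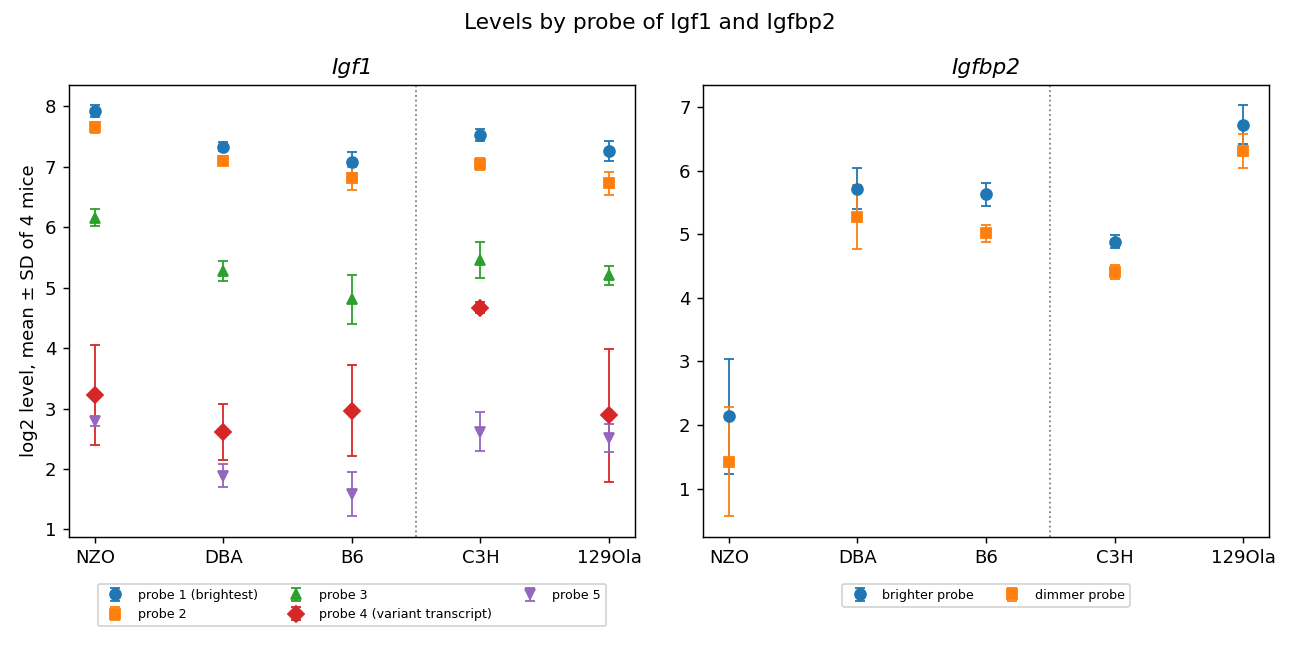
Log2 level of the 5 Igf1 probes (left) and the 2 Igfbp2 probes (right), mean ± SD of 4 mice per strain, with the dotted line between the array batches. The Igf1 probe on a variant transcript is highest in C3H at 4.67, and both Igfbp2 probes are lowest in NZO.

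Igfals, whose product holds IGF1 in its large complex, also had its highest strain mean in NZO. NZO mice had 4.80, 4.75, 4.79 and 4.70, DBA mice had 4.10, 4.19, 4.13 and 4.27, and B6 mice had 4.37, 4.41, 4.55 and 3.95. NZO mice overlapped with neither DBA nor B6 and spanned the narrowest range (SD 0.05, against 0.07 in DBA and 0.26 in B6). They did overlap with C3H mice, and NZO against C3H, across the array batches, missed the threshold (0.29, adjusted p = 0.143). NZO exceeded DBA by 0.59 (SE 0.15, adjusted p = 0.00931; adjusted p = 0.0715 with the slide as a fixed block). NZO exceeded B6 by 0.44 (SE 0.15, adjusted p = 0.0495), at the edge of the threshold. The call was lost under 9 of the 13 alternatives with a test and in 15 of the 20 fits that left out 1 mouse. Those keeping it were without B6 11, C3H 3 or 5, or 129Ola 5 or 9. C3H exceeded 129Ola by 0.54 (SE 0.15, adjusted p = 0.00985; adjusted p = 0.146 with the slide as a random block), with C3H mice at 4.47, 4.61, 4.10 and 4.71 and 129Ola mice at 3.99, 4.26, 3.92 and 3.58.

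Igfbp4 was higher in NZO, at 4.97, 4.68, 4.90 and 4.91, against 4.53, 4.10, 4.68 and 4.35 in DBA and 4.32, 4.27, 4.31 and 4.57 in B6. NZO did not overlap with B6 but touched the range of DBA. It exceeded B6 by 0.50 (SE 0.11, adjusted p = 0.0034) and DBA by 0.45 (SE 0.11, adjusted p = 0.00722). Both calls were lost with the slide as a fixed block (adjusted p = 0.231 and 0.17), and that against DBA with the scan day (adjusted p = 0.0708). C3H mice had 4.18, 4.17, 4.14 and 4.02 against 4.50, 4.33, 4.41 and 4.46 in 129Ola mice. C3H was lower (-0.30, SE 0.11, adjusted p = 0.0395), a call lost under 7 of 11 alternatives and without C3H 1, 2, 3 or 5, or 129Ola 4, 7 or 9.

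Igfbp3, which in liver is made mainly outside hepatocytes, differed little among NZO, DBA and B6. Its level was 0.71, -0.12, 0.29 and 0.25 in NZO, 0.18, 0.06, 0.04 and -0.03 in DBA, and -0.10, 0.56, 0.12 and 0.15 in B6, with all 3 strains overlapping. A moderated F-test over these strains gave adjusted p = 0.749 for Igfbp3, against 6.01e-08 for Igfbp2, 1.09e-05 for Igf1, 0.00064 for Igfbp1, 0.00319 for Igfbp4 and 0.0146 for Igfals. C3H was the low strain, at -0.96, -1.08, -1.34 and -0.65 against -0.06, -0.55, 0.63 and 0.37 in 129Ola, a 2.15-fold lower level (-1.11, SE 0.23, adjusted p = 0.00122; adjusted p = 0.0252 with the slide as a random block). Sinusoidal endothelial markers were lower in C3H for 6 of 10 and higher for 2, with list means of 2.67 to 2.88 in C3H and 2.77 to 3.04 in 129Ola. Kupffer cell and macrophage markers were lower in C3H for 8 of 10 and higher for 1, with list means of 2.07 to 2.99 in C3H and 3.01 to 3.48 in 129Ola, which did not overlap. Stellate cell markers were lower for 5 of 10 and higher for 1, with list means of 1.49 to 1.58 in C3H and 1.65 to 1.89 in 129Ola. Of all genes 22.6% were lower in C3H and 15.4% higher. Cholangiocyte markers were lower for 2 of 6 and higher for none, and lymphocyte markers lower for 1 of 7 and higher for 1. Erythroid markers were higher for 4 of 5 and lower for none, with list means of 5.00 to 5.35 in C3H and 3.68 to 4.40 in 129Ola. The part of these cells in the Igfbp3 value was not tested, and in bulk tissue fewer cells of a type and less RNA per cell cannot be told apart. The second Igfbp3 probe was well above background on 1 of 20 arrays and did not enter.

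Counted over the members, NZO against B6 gave 3 higher (Igf1, Igfals, Igfbp4), 2 lower (Igfbp1, Igfbp2) and 1 not past the threshold (Igfbp3), where 18.3% of all genes tested were called, 9.72% higher and 8.57% lower. DBA against B6 gave 1 lower of 6, against 15.4% of all genes, 7.27% higher and 8.08% lower. NZO against DBA gave 3 higher and 1 lower of 6, against 18% of all genes, 9.77% higher and 8.27% lower. C3H against 129Ola gave 2 higher and 3 lower of 6, against 37.9% of all genes, 15.4% higher and 22.6% lower. The F-test called 5 of 6, against 27.6% of all genes. The median member difference was 0.27 for NZO minus B6, beside 0.05 over all genes, since members moved in both directions. By the size of the difference between NZO and B6, Igfbp2 stood at percentile 99.4 of all genes, Igfbp1 at 99, Igf1 at 89.6, Igfbp4 at 77.2, Igfals at 73.1 and Igfbp3 at 22.9. NZO against B6 and NZO against DBA share the NZO mice.

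Across the array batches, where strain and batch cannot be told apart, the shares of all genes called ran from 34.8 to 53.1%. NZO against C3H called 5 of the 6 members, beside 36.1% of all genes, and NZO against 129Ola called 5, beside 53.1%. C3H against B6 called 3, beside 36.4% of all genes, and C3H against DBA called 2, beside 34.8%. DBA against 129Ola called 2, beside 50.1%, and 129Ola against B6 called 2, beside 51%.

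**Figure D3:**
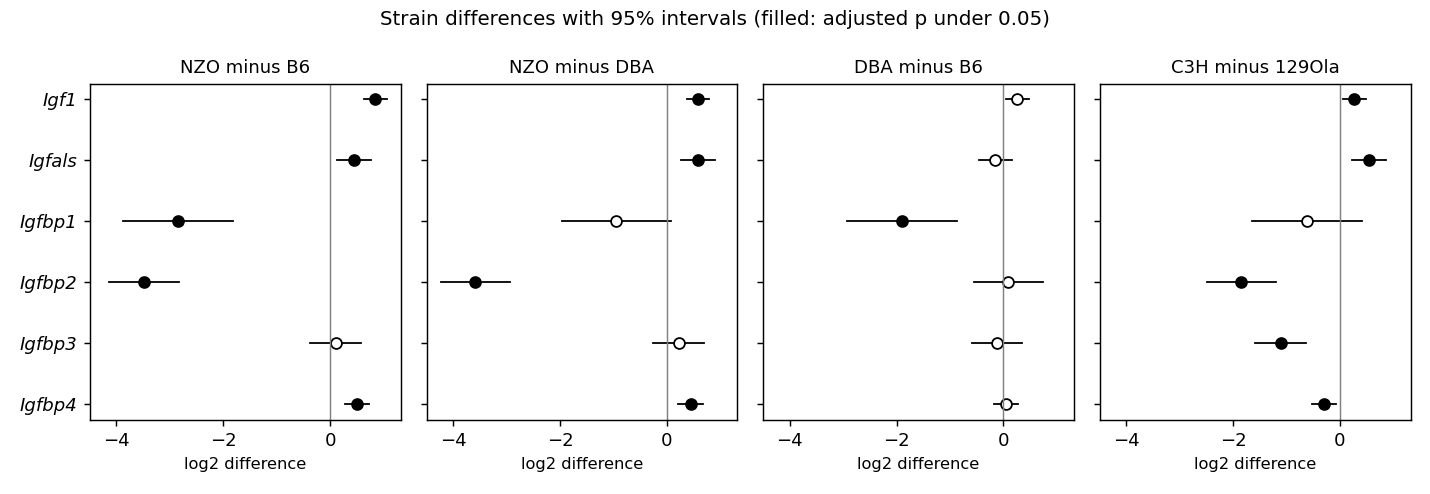
Log2 differences of the 6 genes with 95% intervals in 4 comparisons, 4 mice per strain; filled points have an adjusted p under 0.05. Igfbp2 lies at -3.49 and -3.58 in both NZO comparisons and at 0.09 in DBA minus B6.

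**Figure D4:**
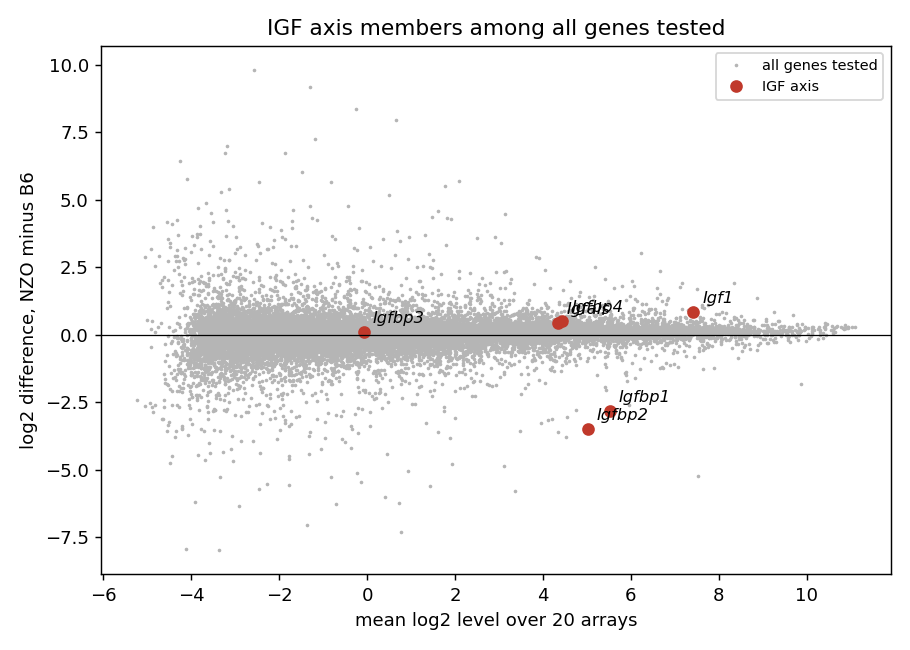
Each of the 20624 genes by its mean log2 level over the 20 arrays (horizontal) and its log2 difference NZO minus B6 (vertical), with the IGF axis in red. Igfbp2 at -3.49 and Igfbp1 at -2.84 lie at the lower edge, and Igfbp3 at 0.10 lies within the bulk.

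The susceptible class was set against the resistant class by averaging 2 contrasts, that of C3H with 129Ola and that of the NZO and DBA mean with B6. Igfbp2 was 3.41-fold lower in the susceptible strains (-1.77, SE 0.20, adjusted p = 4.52e-06), Igfbp1 2.82-fold lower (-1.50, adjusted p = 0.00208) and Igfbp3 1.47-fold lower (-0.56, adjusted p = 0.0095). Igf1 was 1.33-fold higher (0.41, adjusted p = 0.000167) and Igfals 1.27-fold higher (0.34, adjusted p = 0.0153). Igfbp4 did not differ past the threshold (-0.01, adjusted p = 0.912). Of all genes, 29.6% were called, 12.2% higher and 17.4% lower. The mice of the 2 classes overlapped for each of the 6 members. How many of all genes overlap in this way was not counted, so this is a description only. For Igfbp2, DBA mice overlapped with the B6 mice, so the class value joins strains that differ. For Igfbp3 the mean of NZO and DBA minus B6 was -0.01 and C3H minus 129Ola was -1.11. Its class value thus rests on C3H and 129Ola, where strain and slide cannot be told apart. For Igfbp1 the same values were -2.37 and -0.62, the latter not past the threshold, and for Igfbp4 they were 0.28 and -0.30, in opposite directions. The p covers the mice of these strains and not strains as replicates, and the calls for Igfals (adjusted p = 0.119) and Igfbp3 (adjusted p = 0.0755) were lost with the slide as a random block.

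Across the 20 arrays, the level of Igfbp2 ran against that of Igf1 (r = -0.83), Igfals (r = -0.75) and Igfbp4 (r = -0.60), and with that of Igfbp1 (r = 0.59). These values rest on strain: with each strain's mean removed, Igfbp2 had r = -0.22 with Igf1, 0.12 with Igfals, -0.14 with Igfbp4 and -0.30 with Igfbp1. The largest correlation within strains was between Igf1 and Igfbp3 (r = 0.61). Pairs share arrays and scaling, and n is 20 throughout.

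Among 11174 named genes above background on all arrays, the 5 whose level was most like that of Igfbp2 were Tgfbi (r = 0.96), which encodes an extracellular matrix protein, Cib3 (0.95), a calcium-binding protein, Siae (0.95), a sialic acid esterase, Pdgfrb (0.95), the platelet-derived growth factor receptor of stellate cells and pericytes, and Lipo3 (0.94), of a lipase family. All 5 were lowest in NZO, which follows from choosing them by their likeness to Igfbp2 over these same arrays. Cib3 averaged -1.71 ± 0.65 in NZO, against 2.55 ± 0.18 in DBA and 3.06 ± 0.37 in B6, and Siae averaged 1.12 ± 0.10 in NZO, against 2.49 ± 0.17 in DBA and 2.44 ± 0.07 in B6 (SD, n = 4 each). The correlations within strains were lower, between 0.10 for Lipo3 and 0.63 for Cib3. Among the 3 most opposite were Akr1c19 (r = -0.92), an aldo-keto reductase, and Ly6g (r = -0.91), a neutrophil surface antigen, with correlations within strains of -0.03 and 0.01. Akr1c19 averaged 5.30 ± 0.20 in NZO, against 2.73 ± 0.32 in DBA and 3.24 ± 0.03 in B6, an order that likewise follows from the choice.

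Among the other ligands, receptors and binding proteins of the family, 7 of 11 listed genes were measured, and by limma 0 passed the threshold in NZO against B6, NZO against DBA or DBA against B6 (at an unadjusted p under 0.05, 0, 1 and 0 of the 7). Of all genes 18.3, 18 and 15.4% passed the threshold in these comparisons. In NZO against B6 the values were -0.21 for Igf1r, the IGF1 receptor, -0.31 for Insr, the insulin receptor, and -0.09 for Igf2r (adjusted p = 0.515, 0.344 and 0.698). Probes of Insr disagree: beside the brightest, a dimmer one was higher in NZO than in B6 (0.48, adjusted p = 0.00848 over all probes) and than in DBA (0.53, adjusted p = 0.00362), and another did not pass (-0.05 and -0.13, adjusted p = 0.827 and 0.52). In C3H against 129Ola, where 15.4% of all genes were higher, 2 of the list were higher, Ins2 by 1.37 and Igfbp5 by 1.00 (adjusted p = 0.0082 and 0.019), both at low signal. Of the IGFBP proteases and their inhibitors 3 of 8 were measured. Mmp14, a membrane metalloprotease, was lower in NZO than in B6 (-0.71, adjusted p = 2.77e-05) and than in DBA (-0.63, adjusted p = 9.3e-05), and Htra1, a serine protease, was lower in DBA than in B6 (-0.58, adjusted p = 0.00234) and in C3H than in 129Ola (-0.37, adjusted p = 0.0225). With the slide as a fixed block the Htra1 difference between DBA and B6 was -0.17 (adjusted p = 0.727), and its call was also lost with the scan day (adjusted p = 0.0775). In C3H against 129Ola the Htra1 call was lost under 6 of 11 alternatives and without C3H 1 or 129Ola 9. The Igfbp5 call was lost under 3 alternatives and without 129Ola 7, and the Ins2 call under 2. The Mmp14 call against B6 was lost with the slide as a fixed block (adjusted p = 0.0824).

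Of 13 genes of growth hormone signalling, NZO was higher than B6 in 3, lower in none, and 10 did not pass. Of all genes 18.3% were called in this comparison, 9.72% higher and 8.57% lower. The list median was 0.11, beside 0.05 over all genes. Socs2, a STAT5 target that dampens growth hormone signalling, was at 3.24, 3.30, 2.94 and 2.32 in NZO, against -1.59, 1.71, -0.80 and -1.24 in DBA and 1.03, -1.28, 2.48 and -0.47 in B6. The NZO mice were close together, and 1 B6 mouse lay in their range. NZO exceeded B6 by 2.51 (SE 0.78, adjusted p = 0.0309) and DBA by 3.43 (SE 0.78, adjusted p = 0.00388). The call against B6 was lost with the slide (4.11, adjusted p = 0.0703) or the scan day (2.66, adjusted p = 0.0676) as a fixed block, and without B6 10 or 15 or NZO 3, 7 or 9 (adjusted p up to 0.113), and that against DBA with either block (adjusted p = 0.118 and 0.11). Ghr, the growth hormone receptor, was higher by 0.33 (adjusted p = 0.00978) and Prlr, the prolactin receptor, by 1.30 (adjusted p = 0.00284). The call for Prlr was lost with the slide as a fixed block (adjusted p = 0.0885), and that for Ghr under 5 of 13 alternatives (0.17 to 0.32, adjusted p up to 0.372). A second Ghr probe gave 0.15 (adjusted p = 0.478 over all probes). Stat5b (0.00) and Jak2 (-0.04) did not pass (adjusted p = 0.993 and 0.808).

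Cish, another STAT5 target, varied widely between mice of a strain, at 5.14, 4.07, 1.24 and 4.04 in NZO, -1.19, 3.05, -0.36 and 2.71 in DBA, and 4.49, -0.77, 3.39 and 2.83 in B6. Strains did not separate (NZO minus B6 1.14, adjusted p = 0.625). In C3H against 129Ola, 2 of the 13 were higher, Cish by 3.78 (adjusted p = 0.036) and Socs1 by 1.79 (adjusted p = 0.00492), and 2 lower, Bcl6 (-2.27, adjusted p = 0.0218) and Sh2b1 (-0.40, adjusted p = 0.00295). Of all genes 37.9% were called there, 15.4% higher and 22.6% lower. C3H Cish spanned 3.90 to 4.38 while 129Ola spanned -2.03 to 4.52, so the groups overlapped. With the slide as a random block the calls for Cish (adjusted p = 0.241), Socs1 (0.111) and Bcl6 (0.189) were lost, and that for Cish also without 129Ola 5, 7 or 9 or any 1 of the C3H mice (adjusted p up to 0.11). DBA against B6 had 0 of 13 past the threshold by limma, beside 15.4% of all genes, and 1 of 13 at an unadjusted p under 0.05.

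Of 13 genes listed under insulin signalling and FOXO1, 1 was lower in NZO than in B6, none was higher and 12 did not pass, with a list median of -0.27. Of all genes 8.57% were lower in that comparison and 9.72% higher. The lower gene was Pdk1 (-1.0, adjusted p = 0.00151), which encodes a kinase that holds back pyruvate dehydrogenase and not a kinase of the insulin cascade. Its call was lost with the slide as a fixed block (adjusted p = 0.123). Among the 12 that did not pass were Pck1, a FOXO1 target and gluconeogenic enzyme (-0.46, adjusted p = 0.317), and Foxo1 itself (-0.33, adjusted p = 0.161). Against DBA, NZO was lower in 3 and higher in none, beside 8.27% of all genes lower and 9.77% higher. The 3 were Trib3 (-1.90, adjusted p = 0.000117), Pdk1 (-1.59, adjusted p = 1.28e-05) and Ppargc1a (-0.90, adjusted p = 0.00443). Trib3, a pseudokinase that binds AKT, was at 1.55, 1.04, 1.33 and 1.28 in NZO, 2.67, 3.47, 3.91 and 2.75 in DBA, and 1.66, 2.21, 1.39 and 2.37 in B6, DBA being the highest of these 3 strains. It was the 1 gene of the list higher in DBA than in B6 (1.29, adjusted p = 0.00471), beside 7.27% of all genes. In C3H against 129Ola 5 were lower and none higher: Trib3 (-2.12, adjusted p = 3.59e-05), Pck1 (-0.80), Foxo1 (-0.78), Irs1 (-0.58) and Akt2 (-0.27), the last at adjusted p = 0.0472. This share of the 13 is close to the 37.9% of all genes called in that comparison. The call for Trib3 held under all 11 alternatives and that for Foxo1 under all but the replicate block, while that for Akt2 was lost under 9 of 11 alternatives and in 14 of the 20 fits that left out 1 mouse, that for Irs1 under 8 and in 5, and that for Pck1 under 7 and in 6. The list count of 5 ranged from 1 to 5 over the alternatives and from 2 to 5 over the fits without 1 mouse. Dimmer probes of Akt2 (-0.26 to 0.02) and Irs1 (-0.34) did not pass.

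**Figure D5:**
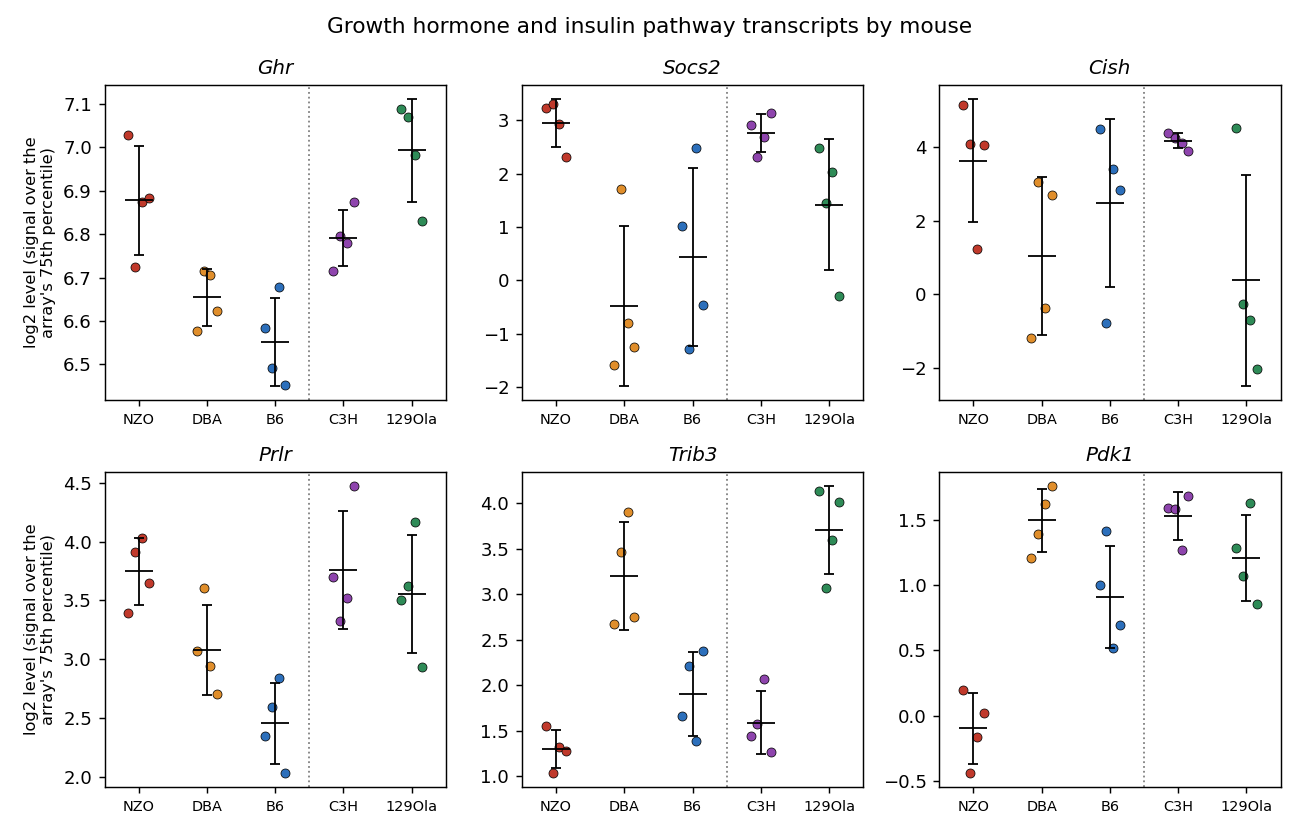
Log2 level of 6 genes from the growth hormone list and the insulin signalling and FOXO1 list by strain. Pdk1 encodes a kinase of pyruvate dehydrogenase. Points are mice, bars the mean ± SD (n = 4), and the dotted line separates the array batches. NZO mice sit between 2.32 and 3.30 for Socs2, while Cish is spread from -0.77 to 4.49 within B6.

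Markers of other liver cells also differed between NZO and B6. Against B6, NZO had lower levels of 5 of 10 markers of Kupffer cells and macrophages (list means 3.11 to 3.36 in NZO, 3.59 to 4.20 in B6). Also lower were 3 of 10 stellate cell markers (1.14 to 1.54 in NZO, 1.75 to 1.85 in B6), among them Pdgfrb (-0.98), and 4 of 6 cholangiocyte markers (-1.88 to -1.29 in NZO, -0.78 to -0.48 in B6). None was higher in these 3 lists, and of all genes 8.57% were lower and 9.72% higher. Sinusoidal endothelial markers were higher for 1 of 10 and erythroid markers for 1 of 5, with none lower (erythroid list means 4.1 to 4.6 in NZO, 3.4 to 3.8 in B6). No lymphocyte, skeletal muscle or adipocyte marker passed the threshold. The part of any of these cells in the member values was not tested. DBA had lower levels than B6 of 6 of 10 Kupffer cell markers, with list means of 2.67 to 2.85, and of 2 of 6 cholangiocyte markers, with none higher. Of the stellate cell markers 3 of 10 were lower in DBA than in B6 and 1 higher. Of all genes 8.08% were lower in DBA than in B6 and 7.27% higher. Against DBA, NZO had 1 of 10 Kupffer cell markers higher and none lower, with NZO list means above those of DBA. Of all genes 9.77% were higher in NZO than in DBA and 8.27% lower. Of the stellate cell markers 5 of 10 were lower in NZO than in DBA and 2 higher (list means 1.14 to 1.54 in NZO, 1.45 to 1.73 in DBA), and of the cholangiocyte markers 1 of 6 was lower and 1 higher.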

How the data were processed

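Liver RNA of 20 mice was hybridised to Agilent 1-colour (Cy3) arrays. Feature Extraction 11.0.1.1 (NZO, DBA, B6) or 11.5.1.1 (C3H, 129Ola) made the deposited intensity values, per the file headers, where the submitters' processing notes name version 9.1. Per the file headers the processed signal is a background-subtracted intensity with no scaling between arrays, and probe positions are on mm9. The authors' series table gives linear intensity values of 37892 probes with identical sorted values in its 20 columns (median 19.9), was matched to its arrays by rank correlation (lowest 0.955) and served as an alternative; its background correction is not given in the sources used here.

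Control and outlier spots were left out, spots of a probe averaged, and each array's 75th percentile subtracted after log2. Per array, 40.0 to 59.1% of the kept probes were well above background. This was 40.0 to 46.9% in C3H and 129Ola and 49.2 to 59.1% in NZO, DBA and B6. On each array 0 spots were saturated, and the number of arrays limits the precision. Probes were named through RefSeq accessions (28011 of 29780 matched, GRCm38.p6 names) or the file's name. limma 3.58.1 (R 4.3.3) fitted 1 mean per strain over 20 arrays (15 residual degrees of freedom). It was tested on simulated data with known differences. Normexp background correction, other scalings, no filter, other probe summaries, slide, scan day and replicate number as blocks, and leaving out each mouse were tried.

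All members are named. Of the pathway lists, genes past the threshold were named, largest first and up to 6 a list and comparison, with a few that did not pass, chosen after their values were seen. The genes most like Igfbp2 were the 5 highest and 3 lowest correlations, of which 1 is not reported here. The members and lists were chosen with earlier results of these data known. The plan took C3H and 129Ola to share a scan period; the headers place them on different slides and days.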

Additional observations from a re-analysis of the deposited data

Results flagged for a closer look

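Within strains, 3 levels lay apart from the other mice of their group by Dixon's criterion, which chance meets in about 1 of 20 groups; 55 groups of 4 were examined. Mouse B6 15 had an Igfbp2 level of 5.36, below 5.71 to 5.73 in the other B6 mice, and its dimmer Igfbp2 probe read 4.82, below 5.05 to 5.10. Mouse 129Ola 7 had an Igf1 level of 7.50, above 7.16 to 7.20 in the other 129Ola mice.

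The susceptible minus resistant difference differed between the strains of the 2 array batches for 3 members, by limma's test of the difference of differences, which called 6447 of 20624 genes. For Igfbp1 the mean of NZO and DBA minus B6 was -2.37 and C3H minus 129Ola was -0.62, differing by -1.75 (adjusted p = 0.0473). For Igfbp3 the values were -0.01 and -1.11, differing by 1.09 (adjusted p = 0.0104). For Igfbp4 they were 0.28 and -0.30, differing by 0.58 (adjusted p = 0.00639). For Igfbp2 they were -1.70 and -1.84 and did not differ past the threshold (adjusted p = 0.816). Strain pair and array batch cannot be told apart in these values.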

How the results depend on the processing

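Igfbp2 kept its direction in NZO against B6 (log2 -3.60 to -3.04), NZO against DBA (-3.88 to -2.66), the class difference (-1.78 to -1.55) and C3H against 129Ola (-1.87 to -1.48) under the alternatives other than leaving out a mouse, and its call in each one with a test, except C3H against 129Ola under the replicate block (-1.55, adjusted p = 0.105). Members called were otherwise counted as follows, by limma. With the slide as a fixed block, NZO against B6 gave 3 of 6 in place of 5, NZO against DBA 1 in place of 4, DBA against B6 0 in place of 1 (2 at an unadjusted p under 0.05) and the F-test 3 in place of 5. With the scan day as a fixed block, DBA against B6 gave 0 (2 unadjusted). With the slide as a random block, C3H against 129Ola gave 2 in place of 5, the class difference 3 in place of 5, C3H against DBA 1 in place of 2, NZO against C3H 3 in place of 5, and DBA against 129Ola and 129Ola against B6 0 each in place of 2 (1 unadjusted in each). Without the filter on dim probes, C3H against 129Ola gave 3 and DBA against 129Ola 1. Under quantile normalization C3H against B6 gave 5 in place of 3 and 129Ola against B6 1 in place of 2; with the percentile over probes above background on all arrays (bright probes) C3H against B6 gave 5. Normexp turned Igfbp4 in DBA against 129Ola (0.40, in place of -0.01) and in 129Ola against B6 (-0.35, in place of 0.06). Calls over all genes moved too under the alternatives other than leaving out a mouse. They ran from 1410 to 13215 for C3H against B6 (7510 in the main fit) and 1539 to 12512 for C3H against DBA (7179). For NZO the range was 2734 to 12245 against C3H (7440) and 7615 to 17168 against 129Ola (10951). It was 7222 to 17099 for DBA against 129Ola (10340) and 6124 to 17322 for 129Ola against B6 (10526). The causes were not tested.

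Leaving out 1 mouse kept these 4 Igfbp2 calls, at -3.75 to -3.08, -3.85 to -3.17, -1.84 to -1.67 and -1.97 to -1.72 in the same order, and gave 3 to 5 members for C3H against 129Ola (3 without C3H 1, 2 or 5 or 129Ola 4 or 9), 1 to 3 for C3H against DBA, 1 to 2 for DBA against 129Ola and for 129Ola against B6, and 4 to 5 for NZO against B6. The animal numbers that strains share do not pair the mice: of 13 same-numbered pairs, 2 had deviations from strain means that correlated above 0.1 (r -0.34 to 0.38). With the number as a replicate block, NZO against B6 gave 2 members, NZO against DBA 1, DBA against B6 0 (0 unadjusted), C3H against 129Ola 0 (1 unadjusted), the class difference 1, NZO against C3H 2, the F-test 2, DBA against 129Ola 0 (1 unadjusted), and C3H against B6, C3H against DBA and 129Ola against B6 0 each (0 unadjusted in each).

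Over all genes, calls in NZO against B6, DBA against B6 and NZO against DBA numbered 3772, 3166 and 3720, against 2212, 835 and 2166 with the slide as a fixed block and 1276, 1334 and 1334 with the replicate block. In C3H against 129Ola 7822 became 4832 under normexp, 2892 with the slide as a random block and 1534 with the replicate block, and in the class difference 6105 became 3001 and 1442 under the last 2. The percentile over bright probes moved the median of C3H minus 129Ola by 0.16, which took the share of calls higher in C3H to 63.8% in place of 40.5%, the share higher in NZO against B6 to 38.9% in place of 53.2%, and that in the class difference to 52.7% in place of 41.3%. Depth of signal limits the second Igfbp3 probe, well above background on 1 of 20 arrays.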
